A study of Saccharomyces cerevisiae with 12 samples.

Results

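The genes described are 10 of the 7126 features in a table of transcript levels from budding yeast (Saccharomyces cerevisiae). They are MSN2 and MSN4, which encode the paired activators of the general stress programme, and 8 genes widely used as readouts of that programme: HSP12, DDR2, CTT1, HOR7, RTN2, TKL2, SOL4 and DCS2. The members were taken by name. The rule used no measured value, but the members were chosen with earlier results of these data known. RNA sequencing was done on 3 samples in each of 4 groups. The sac3∆ group lacked chromosomal SAC3 and carried empty pRS315. The R288D group lacked chromosomal SAC3 and carried pRS315 with SAC3 bearing the R288D substitution. The cdk8∆ group lacked CDK8 (SSN3), carried empty pRS315 and kept its native SAC3. The WT group was itself a sac3∆ strain, with 13MYC-SAC3 on pRS315. Thus cdk8∆ and WT also differed in the source of SAC3, and effects of that difference cannot be told apart from those of the deletion. The R288D labels name no 13MYC tag. If R288D and WT differed in the tag, its effects cannot be told apart from those of the substitution. All cells grew in synthetic medium without leucine and received no stress treatment, so every value below is a basal level during growth.

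Msn2 and Msn4 are zinc finger transcription factors that bind the stress response element, STRE, whose core reads AGGGG, or CCCCT when read from the opposite strand. During growth on glucose, protein kinase A keeps them mostly inactive and out of the nucleus, and stress or nutrient loss releases them. Sac3 is the scaffold of TREX-2, a nuclear pore complex partner that joins gene transcription with the export of mRNA and contacts Mediator, the coactivator that relays signals to RNA polymerase II. Cdk8 is the kinase of the Mediator kinase module and is known in yeast to phosphorylate Msn2.

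The STRE core was searched for on both strands in the 300 bases before each start codon, in the RefSeq genome of build R64. All 8 target genes held at least 1 core, and 3 of the 8 held at least 2, namely HSP12, DDR2 and DCS2. MSN2 and MSN4 held 0. Of 6001 nuclear protein-coding genes, 22.2% held at least 1 core, 3.45% at least 2 and 0.550% at least 3. The stretches below show cores before the 8 targets, but not all of those within 500 bases. Capitals mark the STRE core, and each stretch is written 5′ to 3′ on the gene's coding strand.
HSP12, chrVI:106811-107080, plus strand: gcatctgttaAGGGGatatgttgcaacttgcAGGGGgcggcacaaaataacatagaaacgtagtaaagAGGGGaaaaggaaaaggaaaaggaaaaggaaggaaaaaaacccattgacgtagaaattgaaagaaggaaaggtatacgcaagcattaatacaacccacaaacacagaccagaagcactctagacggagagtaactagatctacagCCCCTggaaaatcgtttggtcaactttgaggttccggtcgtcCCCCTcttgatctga
DDR2, chrXV:231916-232013, minus strand: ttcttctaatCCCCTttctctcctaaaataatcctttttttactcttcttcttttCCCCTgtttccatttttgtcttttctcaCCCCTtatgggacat
CTT1, chrVII:654246-654285, plus strand: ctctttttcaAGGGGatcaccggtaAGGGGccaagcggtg
HOR7, chrXIII:774491-774515, plus strand: tttgggtaagCCCCTttctgttttc
RTN2, chrIV:94435-94459, plus strand: taggcaatctCCCCTtattgttcac
TKL2, chrII:476500-476524, minus strand: attggcttgtCCCCTcttactgtag
SOL4, chrVII:985836-985860, plus strand: aaaaaatcccCCCCTaagcagcgaa
DCS2, chrXV:657094-657130, plus strand: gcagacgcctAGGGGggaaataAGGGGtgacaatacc
HSP12 had 5 cores within 500 bases, more than any other member. Its 3 distal cores, all AGGGG, lie inside the annotated open reading frame YFL015C. The 2 proximal cores, both CCCCT, lie 232 to 228 and 190 to 186 bases before the start codon. In DDR2 the 3 cores shown all read CCCCT on the coding strand and sit within 98 bases that also include the flanks. Not shown are further cores of DDR2 (CCCCT, 472 to 468 bases before the start codon) and HOR7 (AGGGG, 373 to 369 bases). The CTT1 pair shown lies beyond 300 bases, and its single core inside that window is 133 to 129 bases before the start codon. The TKL2 core is the nearest to a start codon, at 77 to 73 bases. A match is a description of letters and was not tested as a binding site.

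**Figure D1:**
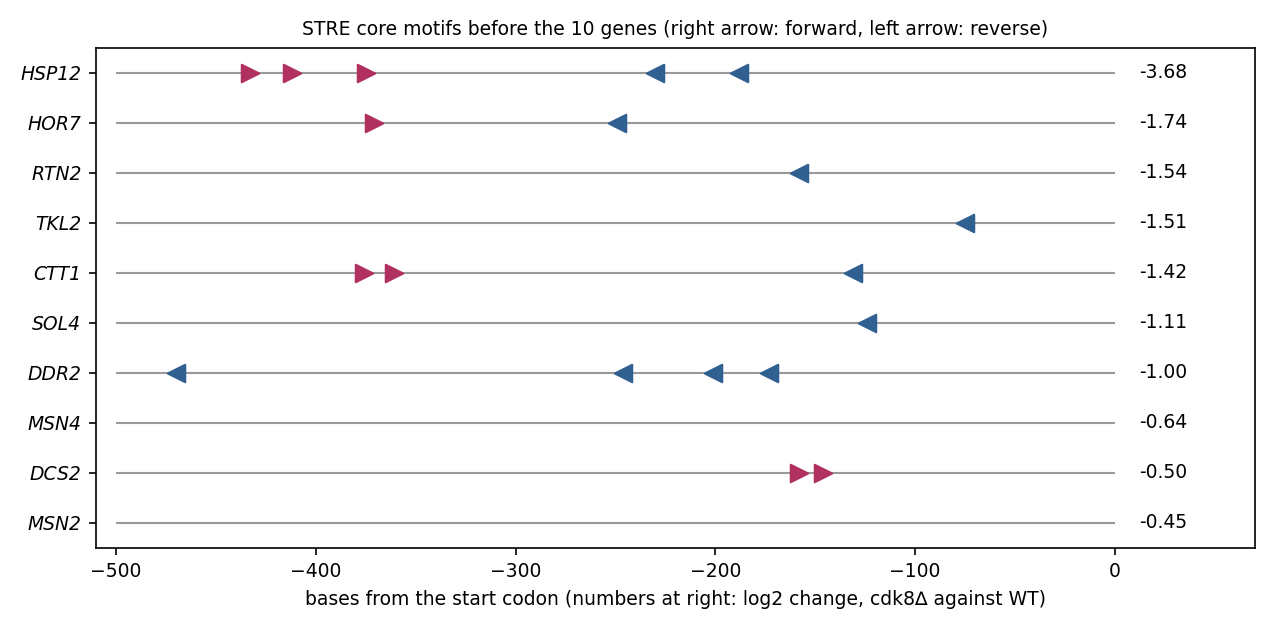
STRE cores before each member's start codon, by distance in bases from the start codon, with right arrows for cores reading AGGGG and left arrows for cores reading CCCCT on the coding strand and the cdk8∆ log2 change at the right. HSP12, at -3.68, carries 5 cores within 500 bases, DDR2, at -0.998, carries 4, and CTT1, at -1.42, carries 3. HOR7 and DCS2 carry 2 each, at -1.74 and -0.50. RTN2, TKL2 and SOL4 carry 1 each, at -1.54, -1.51 and -1.11. MSN2 and MSN4, at -0.45 and -0.64, carry 0.

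Values are RPKM, reads per kilobase of gene and mega-read of library, so levels can be compared between genes. Changes are differences of log2(RPKM + 1) with the limma standard error, which understate the change of low genes. The depth recovered from the table was 17.2 to 19.9 M reads (mega-reads) in sac3∆, 16.2 to 17.7 in R288D, 18.0 to 22.4 in cdk8∆ and 16.3 to 21.3 in WT. SAC3 was at 0.0150, 0.0931 and 0.0294 RPKM in sac3∆, against 51.3 ± 2.32 RPKM in WT (SD, n = 3), and SSN3 at 0.121, 0.284 and 0.211 RPKM in cdk8∆, against 49.7 ± 0.0660 RPKM in WT (SD, n = 3). SAC3 averaged 63.7 ± 1.18 RPKM in R288D and 33.5 ± 0.347 RPKM in cdk8∆ (SD, n = 3). Replicate libraries differed most within R288D, where the chi-square per degree of freedom between pairs was 25.4 to 43.1, against 5.67 to 23.2 in the other 9 pairs. R288D replicate 2 gave the highest R288D value of 9 of the 10 members, so results for R288D are also given without it. No other annotated gene overlaps a member, and each has 1 coding exon. All 10 members passed the filter at a mean of 1 RPKM, with 624 to 12587 reads per sample behind each value of the members other than TKL2.

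All 10 members fell in cdk8∆ relative to WT, and in each of them all cdk8∆ samples lay below all WT samples. Among all 6124 features tested, 30.6% fell, 31.5% rose and 35.9% lay wholly below WT. In sac3∆, 5 members rose relative to WT (MSN2, DDR2, CTT1, TKL2 and SOL4) and 0 fell, against 27.4% of all features that rose and 24.1% that fell. In R288D, 4 members rose (MSN2, DDR2, CTT1 and TKL2) and 0 fell, against 26.3% and 24.4% of all features. At an unadjusted limma p under 0.05, 0 members fell in either of those strains, beside 1617 of the 6124 features in sac3∆ and 1681 in R288D. All sac3∆ samples lay above all WT samples in 7 members (31.9% of all features), and all R288D samples did in 4 (28.7%). The median log2 change of the 10 members was 0.36 in sac3∆, 0.25 in R288D and -1.27 in cdk8∆, beside 0.04, 0.02 and 0.01 for all features tested. These counts are a description of the 10 members, and no test of the list was made. A call here is a limma adjusted p under 0.05 (Benjamini-Hochberg over the 6124 features). Of all features called, 53.3% rose in sac3∆ and 51.8% in R288D, and these shares were 37.8% and 38.8% with the median of all features set equal in every sample. Under quantile normalization the members' median was 0.50 in sac3∆, 0.46 in R288D and -0.95 in cdk8∆.

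**Figure D2:**
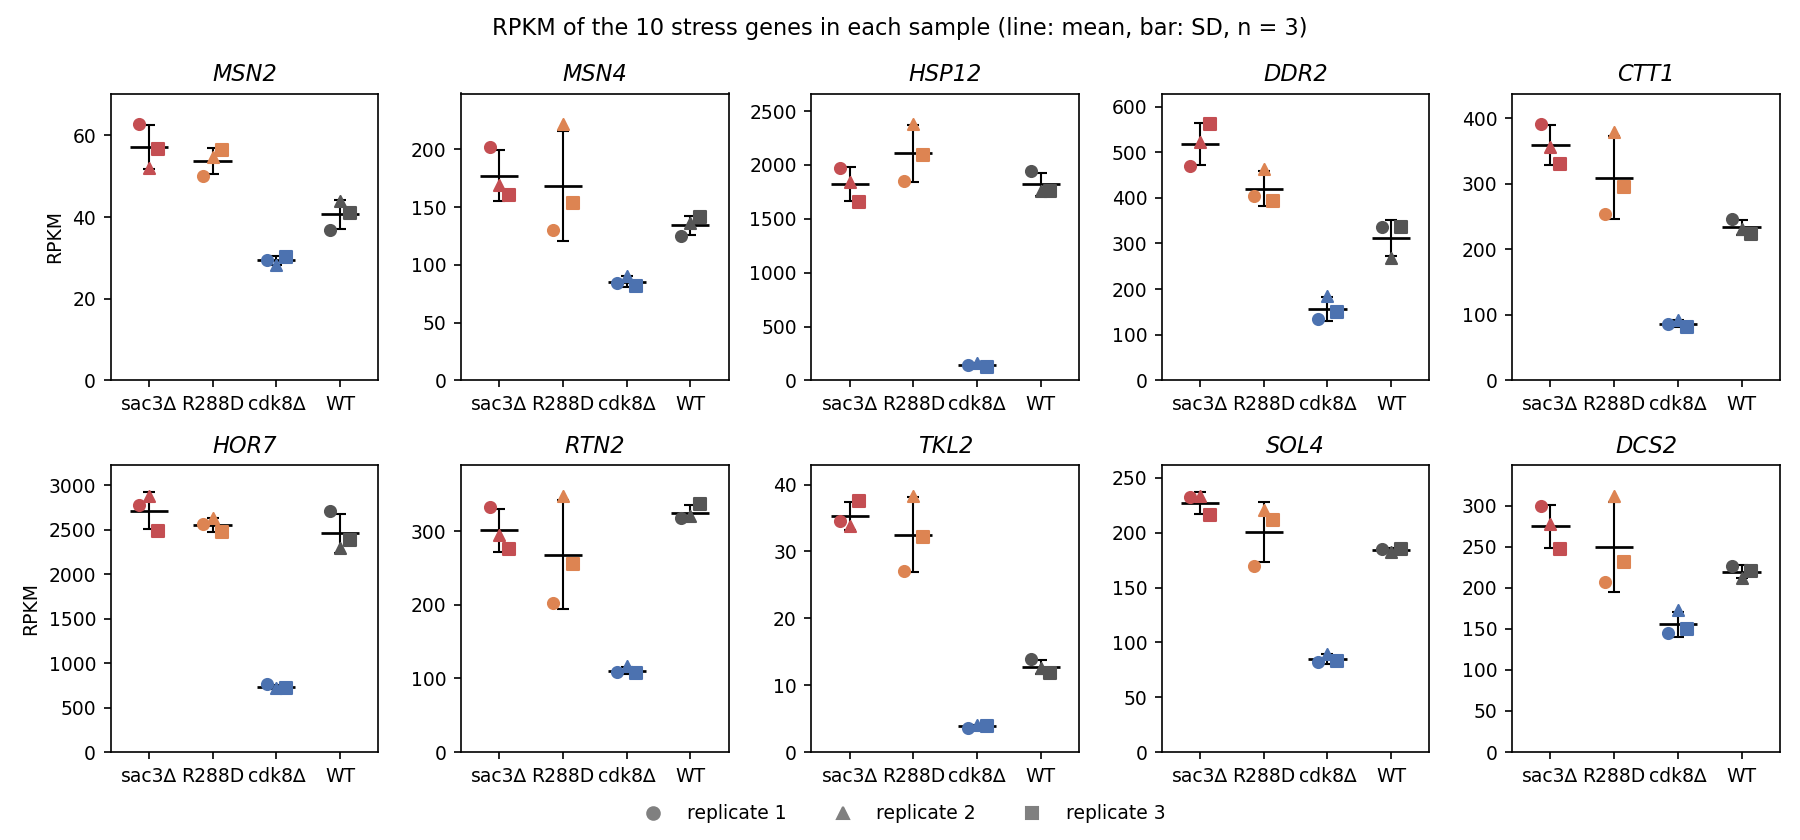
RPKM (linear axis from 0) of each of the 10 genes in the 12 samples, 1 symbol per sample by replicate number, with a line at the group mean and a bar for the SD (n = 3). In every panel the 3 cdk8∆ samples lie below the 3 WT samples, and R288D replicate 2 is the highest R288D sample in 9 of 10 panels.

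The activators themselves were measured first. MSN2 (YMR037C, R64 chromosome XIII, 344403 to 346517, minus strand) was at 62.7, 52.0 and 56.6 RPKM in sac3∆, 50.1, 54.8 and 56.4 RPKM in R288D, 29.5, 28.3 and 30.3 RPKM in cdk8∆, and 36.9, 43.9 and 41.1 RPKM in WT. Both SAC3 mutants lay wholly above WT and cdk8∆ wholly below it. The log2 change was 0.48 ± 0.08 in sac3∆ (limma adjusted p = 3.47e-04), 0.40 ± 0.08 in R288D (adjusted p = 0.00140) and -0.45 ± 0.08 in cdk8∆ (adjusted p = 3.81e-04). Without R288D replicate 2 the R288D value was 0.38 (limma adjusted p = 0.00452). MSN4 (YKL062W, chromosome XI, 323228 to 325120, plus strand) was at 202, 169 and 161 RPKM in sac3∆, 130, 222 and 153 RPKM in R288D, 84.5, 90.5 and 81.7 RPKM in cdk8∆, and 125, 136 and 142 RPKM in WT. The sac3∆ samples were all above WT, the R288D samples overlapped the WT range, and the cdk8∆ samples were all below it. MSN4 fell by 0.64 ± 0.15 on the log2 scale in cdk8∆ (limma adjusted p = 0.00314). The difference in sac3∆, 0.39 ± 0.15, narrowly missed the threshold (adjusted p = 0.0502) and passed it under 5 alternatives, among them leaving R288D replicate 1 (adjusted p = 0.0193) or R288D replicate 2 (adjusted p = 0.00307) out of the shared fit. In R288D it was 0.29 ± 0.15 (adjusted p = 0.137), 0.08 without replicate 2 and 0.46 without replicate 1 (adjusted p = 0.0175). The ratio of MSN4 to MSN2 was 3.10 ± 0.232 in sac3∆, 3.12 ± 0.803 in R288D, 2.92 ± 0.256 in cdk8∆ and 3.31 ± 0.187 in WT (SD, n = 3), so MSN4 was the more abundant in every group.

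HSP12 (YFL014W, chromosome VI, 107256 to 107585, plus strand), a small heat shock protein that stabilises membranes, had the largest fall of the members. Its samples read 1971, 1838 and 1659 RPKM in sac3∆, 1851, 2378 and 2089.9 RPKM in R288D, 143, 160 and 122 RPKM in cdk8∆, and 1946, 1756 and 1756 RPKM in WT. The cdk8∆ level was 7.78% of WT, whereas the sac3∆ samples overlapped WT. The log2 change in cdk8∆ was -3.68 ± 0.11 (limma adjusted p = 3.33e-10), rank 3 from the largest fall among 6124 features. In R288D the difference was 0.21 ± 0.11 (limma adjusted p = 0.143). It was 0.11 without R288D replicate 2 (adjusted p = 0.413) and 0.29 without R288D replicate 1 (adjusted p = 0.0484). In sac3∆ the adjusted p was 0.997. With quantile normalization HSP12 passed the threshold in both, at 0.50 in sac3∆ (adjusted p = 0.00880) and 0.68 in R288D (adjusted p = 0.00159).

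DDR2 and HOR7 are paralogous genes for small stress-induced proteins. DDR2 (YOL052C-A, chromosome XV, 231570 to 231755, minus strand) was at 470, 523 and 561 RPKM in sac3∆, 404, 463 and 394 RPKM in R288D, 135, 185 and 150 RPKM in cdk8∆, and 336, 267 and 335 RPKM in WT. Each mutant group was wholly outside the WT range, the SAC3 mutants above and cdk8∆ below. The log2 change was 0.73 ± 0.12 in sac3∆ (limma adjusted p = 3.71e-04), 0.43 ± 0.12 in R288D (adjusted p = 0.0115) and -0.998 ± 0.12 in cdk8∆ (adjusted p = 2.22e-05). The R288D call was lost without WT replicate 2, the lowest WT sample (0.32, limma adjusted p = 0.0529). Without R288D replicate 2 the call held (0.36, adjusted p = 0.0401). HOR7 (YMR251W-A, chromosome XIII, 774752 to 774931, plus strand) was the most abundant member, at 2779, 2880.5 and 2487 RPKM in sac3∆, 2561, 2627 and 2478 RPKM in R288D, 763, 717 and 723 RPKM in cdk8∆, and 2712, 2293 and 2380.1 RPKM in WT. The SAC3 mutants overlapped WT and cdk8∆ lay far below. HOR7 fell by 1.74 ± 0.08 on the log2 scale in cdk8∆ (limma adjusted p = 4.89e-09). It differed by 0.14 ± 0.08 in sac3∆ (limma adjusted p = 0.135) and 0.06 ± 0.08 in R288D (adjusted p = 0.561), or 0.04 without R288D replicate 2 (adjusted p = 0.737). Quantile normalization gave 0.54 and 0.51 for those strains, both past the threshold. The sac3∆ difference also passed without WT replicate 1 (0.21, adjusted p = 0.0333) or without sac3∆ replicate 3 (0.20, adjusted p = 0.0475).

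CTT1 (YGR088W, chromosome VII, 654634 to 656322, plus strand) encodes the cytosolic catalase, which breaks down hydrogen peroxide. It was at 391, 357 and 330.2 RPKM in sac3∆, 254, 379 and 295 RPKM in R288D, 86.7, 91.4 and 81.7 RPKM in cdk8∆, and 246, 231 and 223 RPKM in WT. No mutant sample fell inside the WT range, although R288D replicate 1 was close to it. CTT1 rose by 0.62 ± 0.12 on the log2 scale in sac3∆ (limma adjusted p = 9.46e-04) and 0.38 ± 0.12 in R288D (adjusted p = 0.0169), and fell by 1.42 ± 0.12 in cdk8∆ (adjusted p = 9.21e-07). The R288D value was 0.23 without R288D replicate 2 (adjusted p = 0.0395). That call was lost without WT replicate 3 (adjusted p = 0.0552) and with only R288D and WT in the fit (adjusted p = 0.0523).

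TKL2 and SOL4 serve the pentose phosphate pathway, which supplies NADPH. TKL2 (YBR117C, chromosome II, 474392 to 476437, minus strand), the minor transketolase, was the scarcest member and had the largest rises. It was at 34.6, 33.7 and 37.6 RPKM in sac3∆, 27.0, 38.3 and 32.2 RPKM in R288D, 3.53, 4.03 and 3.92 RPKM in cdk8∆, and 13.9, 12.5 and 11.8 RPKM in WT. The groups sat at 3 separate levels, with the SAC3 mutants together at the top. Mean levels were 2.78 times WT in sac3∆, 2.56 times in R288D and 0.301 times in cdk8∆. The log2 changes were 1.41 ± 0.11 (limma adjusted p = 1.41e-06), 1.28 ± 0.11 (adjusted p = 3.11e-06) and -1.51 ± 0.11 (adjusted p = 3.13e-07) in that order. Without R288D replicate 2 the R288D value was 1.16 (limma adjusted p = 4.91e-06). The reads behind these levels were 174 to 205 per sample in cdk8∆ and 371 to 522 in WT.

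SOL4 (YGR248W, chromosome VII, 985972 to 986739, plus strand), a phosphogluconolactonase, was at 232, 234 and 216 RPKM in sac3∆, 169, 221 and 211 RPKM in R288D, 82.0, 89.8 and 82.8 RPKM in cdk8∆, and 185, 182 and 185 RPKM in WT. All sac3∆ samples were above WT, R288D straddled it and cdk8∆ was below. SOL4 rose by 0.30 ± 0.08 on the log2 scale in sac3∆ (limma adjusted p = 0.00978) and fell by 1.11 ± 0.08 in cdk8∆ (adjusted p = 3.72e-07). In R288D the difference was 0.11 ± 0.08 (limma adjusted p = 0.290) and 0.04 without R288D replicate 2 (adjusted p = 0.727). It passed without R288D replicate 1 (0.23, adjusted p = 0.00483) and with quantile normalization (0.28, adjusted p = 0.0208). The sac3∆ call was lost once the median of all features was set equal in every sample (0.21, adjusted p = 0.0524).

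RTN2 (YDL204W, chromosome IV, 94605 to 95786, plus strand) encodes a reticulon, a protein that shapes the endoplasmic reticulum. It was at 334, 294 and 277 RPKM in sac3∆, 202, 348 and 255 RPKM in R288D, 109, 117 and 107 RPKM in cdk8∆, and 318, 320.3 and 338 RPKM in WT. It was the one member whose mean was below WT in all 3 mutants, with sac3∆ and R288D overlapping WT. The log2 change was -0.11 ± 0.15 in sac3∆ (limma adjusted p = 0.550), -0.31 ± 0.15 in R288D (adjusted p = 0.0982) and -1.54 ± 0.15 in cdk8∆ (adjusted p = 2.95e-06). R288D replicate 2 was the highest of the 12 samples, and without it RTN2 fell in R288D by 0.52 ± 0.10 on the log2 scale (adjusted p = 0.00106). It also passed in R288D with the medians of all features set equal (-0.38, adjusted p = 0.0447).

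DCS2 (YOR173W, chromosome XV, 657264 to 658325, plus strand), related to the scavenger decapping enzyme Dcs1, had the smallest fall among the 8 targets. It was at 299.1, 278 and 247 RPKM in sac3∆, 206, 312 and 232 RPKM in R288D, 145, 173 and 149 RPKM in cdk8∆, and 227, 212 and 220.4 RPKM in WT. The sac3∆ samples were above all WT samples and the cdk8∆ samples below, while R288D spanned the WT range. DCS2 fell by 0.50 ± 0.13 on the log2 scale in cdk8∆ (limma adjusted p = 0.00507). This was the one cdk8∆ call lost under an alternative, at -0.18 with quantile normalization (adjusted p = 0.237). The difference was 0.32 ± 0.13 in sac3∆ (adjusted p = 0.0561) and 0.16 ± 0.13 in R288D (adjusted p = 0.310). The R288D value was -0.01 without replicate 2 and 0.37 with quantile normalization (adjusted p = 0.0325). The sac3∆ value passed under several alternatives, among them leaving out R288D replicate 2 (adjusted p = 0.00642), R288D replicate 1 (adjusted p = 0.0278) or sac3∆ replicate 3 (0.39, adjusted p = 0.0416) and quantile normalization (0.51, adjusted p = 0.00653).

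**Figure D3:**
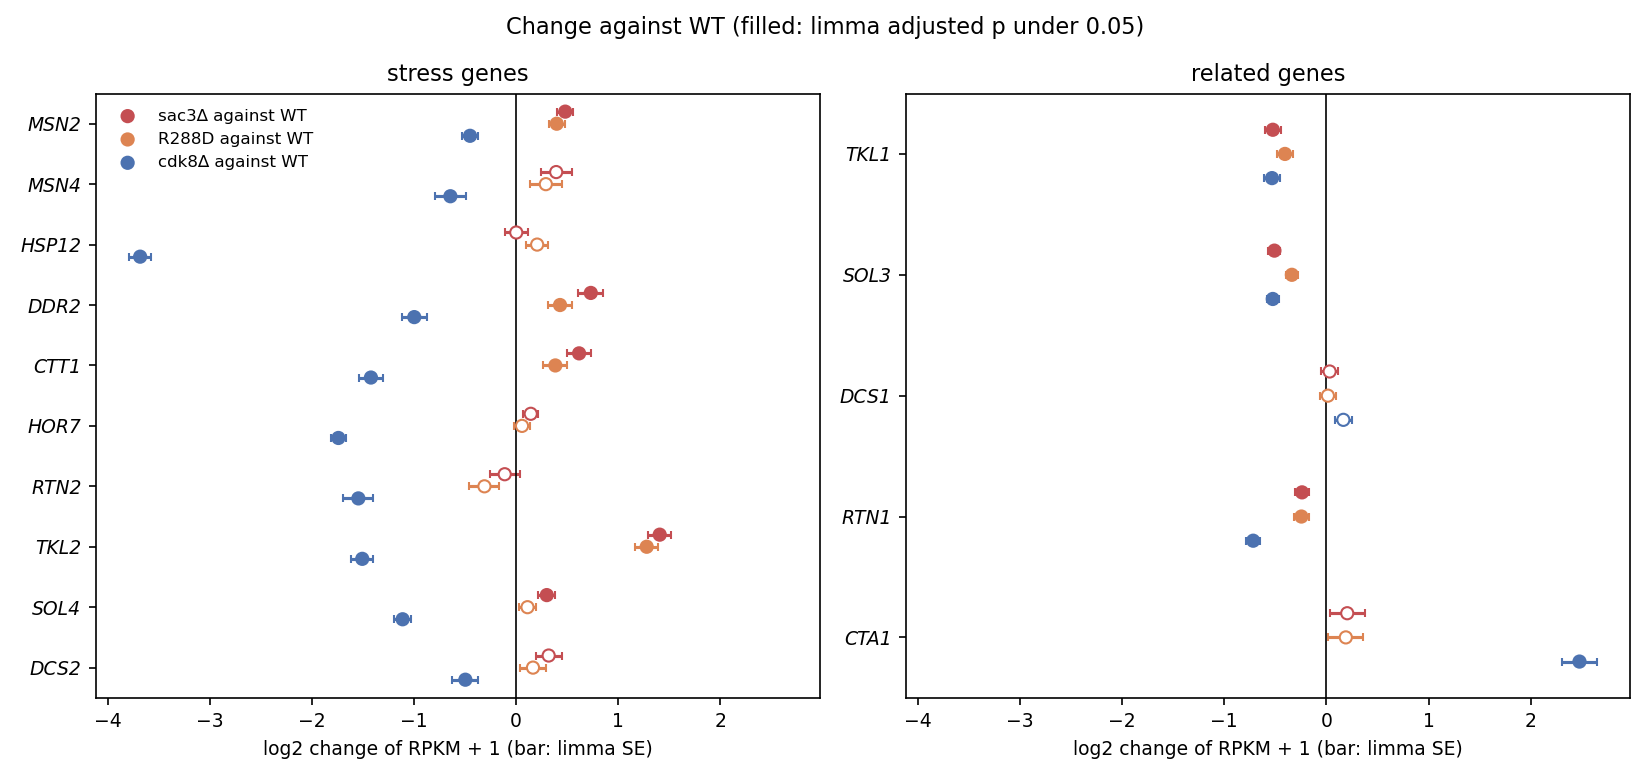
Log2 change of RPKM + 1 in sac3∆, R288D and cdk8∆ relative to WT for the 10 stress genes (left) and 5 paralogs (right), with bars for the limma standard error and filled symbols for an adjusted p under 0.05. All 10 stress genes are filled and below 0 in cdk8∆, with HSP12 at -3.68, while TKL2 lies farthest above 0 among them in sac3∆ (1.41) and R288D (1.28).

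The difference between sac3∆ and R288D asks whether the point substitution differs from loss of the whole protein. No member passed the limma threshold (0 of 10, beside 1.37% of all features). An unadjusted limma p under 0.05 was found for 2 of the 10, DDR2 and SOL4, beside 683 of all 6124 features. The 95% interval of sac3∆ minus R288D on the log2 scale was 0.04 to 0.57 for DDR2 and 0.01 to 0.37 for SOL4. The DDR2 ranges of the strains did not overlap, and its limma adjusted p was 0.377. Among all features, sac3∆ lay wholly above R288D in 306 and wholly below it in 431. For TKL2 the difference was 0.13 (-0.11 to 0.37), for MSN2 0.08 (-0.09 to 0.26), for MSN4 0.10 (-0.23 to 0.44) and for HOR7 0.09 (-0.08 to 0.25). For CTT1 it was 0.23 (-0.02 to 0.49), for RTN2 0.20 (-0.12 to 0.52), for DCS2 0.15 (-0.13 to 0.43) and for HSP12 -0.20 (-0.45 to 0.04). The CTT1 and DDR2 intervals reach as far as the changes of those genes in R288D against WT. Without R288D replicate 2, CTT1 (0.39, adjusted p = 0.0235) and RTN2 (0.40, adjusted p = 0.0334) were higher in sac3∆ by limma.

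Set against cdk8∆ directly, all 10 members were higher in sac3∆ and all 10 were higher in R288D, beside 32.9% and 32.3% of all features. These comparisons share the cdk8∆ samples, and sac3∆ and cdk8∆ both carried empty pRS315. The log2 difference between sac3∆ and cdk8∆ was 3.68 ± 0.11 for HSP12, 2.91 ± 0.11 for TKL2 and 2.04 ± 0.12 for CTT1, and the smallest was 0.82 ± 0.13 for DCS2 (limma adjusted p = 1.52e-04). The difference between R288D and cdk8∆ was 3.89 ± 0.11 for HSP12, 2.78 ± 0.11 for TKL2, 1.81 ± 0.12 for CTT1 and 1.80 ± 0.08 for HOR7. The smallest was 0.66 ± 0.13 for DCS2 (limma adjusted p = 7.16e-04). The activators were the least different besides DCS2, with MSN2 at 0.93 and MSN4 at 1.04 between sac3∆ and cdk8∆.

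The members also varied unequally within groups. The median over the 10 members of the SD of log2 values was 0.127 in sac3∆, 0.224 in R288D, 0.0768 in cdk8∆ and 0.0876 in WT. Over all features it was 0.0832, 0.106, 0.0534 and 0.0740 in the same order of strains. The spread in R288D was widest for MSN4, RTN2, DCS2 and CTT1, whose coefficients of variation were 28.2%, 27.5%, 21.99% and 20.6%. It was narrowest for HOR7, MSN2 and DDR2, at 2.93%, 6.09% and 8.92%.

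The members' paralogs outside the list had their own values. TKL1, the major transketolase, fell in all 3 mutants, at -0.52 in sac3∆, -0.41 in R288D and -0.53 in cdk8∆, although with quantile normalization its change was -0.04 in R288D and 0.15 in cdk8∆, neither called. The ratio of TKL2 to TKL1 was 0.0559 ± 0.00581 in sac3∆, 0.0481 ± 0.0140 in R288D, 0.00609 ± 0.000653 in cdk8∆ and 0.0140 ± 0.000933 in WT (SD, n = 3). SOL3, the other phosphogluconolactonase, also fell, at -0.51, -0.34 and -0.52 in the same order of strains, and SOL4 to SOL3 stood at 2.01 in sac3∆, 1.58 in R288D, 0.760 in cdk8∆ and 1.15 in WT. RTN1, the main reticulon, was at -0.24 in sac3∆, -0.24 in R288D and -0.72 in cdk8∆, and its sac3∆ and R288D calls were lost with quantile normalization (-0.03 and -0.06). DCS1, the decapping scavenger, missed the threshold in all 3 comparisons, at 0.03, 0.01 and 0.17, and rose in all 3 with quantile normalization, at 0.23, 0.22 and 0.53. CTA1, the peroxisomal catalase, rose in cdk8∆, where CTT1 fell, and was at 40.02, 37.6 and 34.9 RPKM in cdk8∆ against 5.94, 5.58 and 6.22 RPKM in WT. Its log2 change was 2.48 ± 0.17 (limma adjusted p = 1.83e-07), so CTT1 to CTA1 was 2.31 ± 0.132 in cdk8∆ and 39.6 ± 3.20 in WT (SD, n = 3). CTA1 and DCS1 held 0 STRE cores within 300 bases, TKL1 and SOL3 held 1 each and RTN1 held 2. Aligned coding sequences of these pairs were 59.9% to 71.3% identical, with a longest shared run of 24 bases (DDR2 with HOR7), and the handling of shared reads in the counting is not stated in these sources.

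The rest of the pathway was described through lists of its regulators and targets. The protein kinase A and Ras branch restrains Msn2 and Msn4. Of 15 of its genes, 7 rose and 2 fell in sac3∆ and 5 rose and 3 fell in R288D. In cdk8∆ 3 rose and 6 fell. The list mixes genes that act for the kinase, such as CDC25, and against it, such as PDE2, so the counts do not measure restraint. Among all features 27.4% rose and 24.1% fell in sac3∆, 26.3% and 24.4% in R288D, and 31.5% and 30.6% in cdk8∆. The balance of the 15 genes depended on the scaling, as did that of all features. With the medians of all features set equal, 4 rose and 5 fell in sac3∆, 4 rose and 5 fell in R288D, and 3 rose and 7 fell in cdk8∆. Of the 6124 features, 1185 then rose and 1954 fell in sac3∆, 1209 and 1908 in R288D, and 1643 and 2187 in cdk8∆. With quantile normalization 9 of the 15 rose in sac3∆, 4 rose in R288D, and 4 rose and 3 fell in cdk8∆. All-feature counts were then 1385 and 1464 in sac3∆, 1295 and 1355 in R288D, and 1810 and 1722 in cdk8∆. PDE2, the high-affinity cAMP phosphodiesterase, rose by 0.55 in sac3∆, 0.52 in R288D and 0.23 in cdk8∆. CDC25, the Ras exchange factor, rose by 0.46 in sac3∆ and 0.47 in R288D and differed by 0.08 in cdk8∆. RAS2 was at -0.04 in sac3∆ (not called), -0.24 in R288D and -0.64 in cdk8∆, and its R288D call was lost with quantile normalization (-0.06). SDC25 and GPR1, also on this list, averaged 161% and 136% of WT in cdk8∆. Of 21 other regulators, kinases, phosphatases, localization factors and cofactors, 11 rose and 2 fell in sac3∆, 10 rose and 2 fell in R288D, and 3 rose and 11 fell in cdk8∆, where the deleted SSN3 is one of those that fell. With medians set equal, 9 of the 21 rose and 5 fell in sac3∆, 9 rose and 4 fell in R288D, and 1 rose and 12 fell in cdk8∆. With quantile normalization 11 rose in sac3∆, 8 rose in R288D, and 2 rose and 9 fell in cdk8∆. BMH1, which encodes a phosphoprotein-binding protein, was at -0.42 in sac3∆, -0.38 in R288D and -1.58 ± 0.06 in cdk8∆ (limma adjusted p = 1.19e-09), but its sac3∆ and R288D calls were lost with quantile normalization (-0.002 and 0.05). COM2, a zinc finger factor gene, fell by 1.42 ± 0.14 in cdk8∆ (limma adjusted p = 3.71e-06).

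A list of 77 other STRE-linked genes held 18 that rose and 5 that fell in sac3∆, and 16 that rose and 10 that fell in R288D. The median log2 change in sac3∆ was 0.06, -0.02 with medians set equal and 0.29 with quantile normalization. In R288D it was -0.04, -0.11 and 0.22 in the same order. In cdk8∆ the list held 5 that rose and 55 that fell (median -0.69), 26 of them by at least 2-fold. The share of the list that fell there was 71.4%, beside 30.6% of all features. With quantile normalization 44 fell and 13 rose in cdk8∆ (median -0.42), beside 1722 and 1810 of the 6124 features. Without R288D replicate 2 the R288D count that fell was 25. YGP1, a secreted glycoprotein gene, fell by 4.04 ± 0.06 on the log2 scale in cdk8∆ (limma adjusted p = 4.02e-13), beyond the fall of each of the 10 members, to 48.6 ± 2.42 RPKM in cdk8∆ against 819 ± 68.9 RPKM in WT (SD, n = 3). SPI1, a cell wall protein gene, fell by 2.04 ± 0.09 there (limma adjusted p = 5.74e-09). HSP26, a small heat shock chaperone, was at 466 ± 61.6 RPKM in sac3∆, 691 ± 45.1 RPKM in R288D, 45.8 ± 3.86 RPKM in cdk8∆ and 199 ± 49.2 RPKM in WT (SD, n = 3). TSL1, of trehalose synthesis, fell in all 3 mutants, at -0.62 in sac3∆, -0.68 in R288D and -1.70 in cdk8∆. SPG4 and ATH1, the acid trehalase gene, were among the 5 that rose in cdk8∆, by 1.45 and 0.63. The share of the list that rose was 23.4% in sac3∆ and 20.8% in R288D, beside 27.4% and 26.3% of all features. The share that fell was 6.49% in sac3∆ and 13.0% in R288D, beside 24.1% and 24.4% of all features. With quantile normalization 40 of the 77 rose in sac3∆ and 27 rose in R288D, beside 1385 and 1295 of the 6124 features.

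Other programmes were counted beside the members. Of 20 Hsf1-linked chaperone genes, 14 fell in sac3∆ (median -0.38), 12 fell in R288D (median -0.30) and 17 fell in cdk8∆ (median -0.59). The share of all features that fell was 24.1% in sac3∆, 24.4% in R288D and 30.6% in cdk8∆. Of 137 ribosomal protein genes, which the stress programme lowers together, 132 fell in sac3∆ (median -0.73), 133 in R288D (median -0.71) and 135 in cdk8∆ (median -0.64). With quantile normalization the ribosomal protein counts that fell were 114, 108 and 16 in that order, and the cdk8∆ median turned to 0.02. The Hsf1-linked counts that fell were then 9, 7 and 12. Among all 6124 features 1464, 1355 and 1722 fell with that scaling. The member counts in cdk8∆ changed less than the ribosomal protein and Hsf1-linked counts, with 9 of 10 that still fell.

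**Figure D4:**
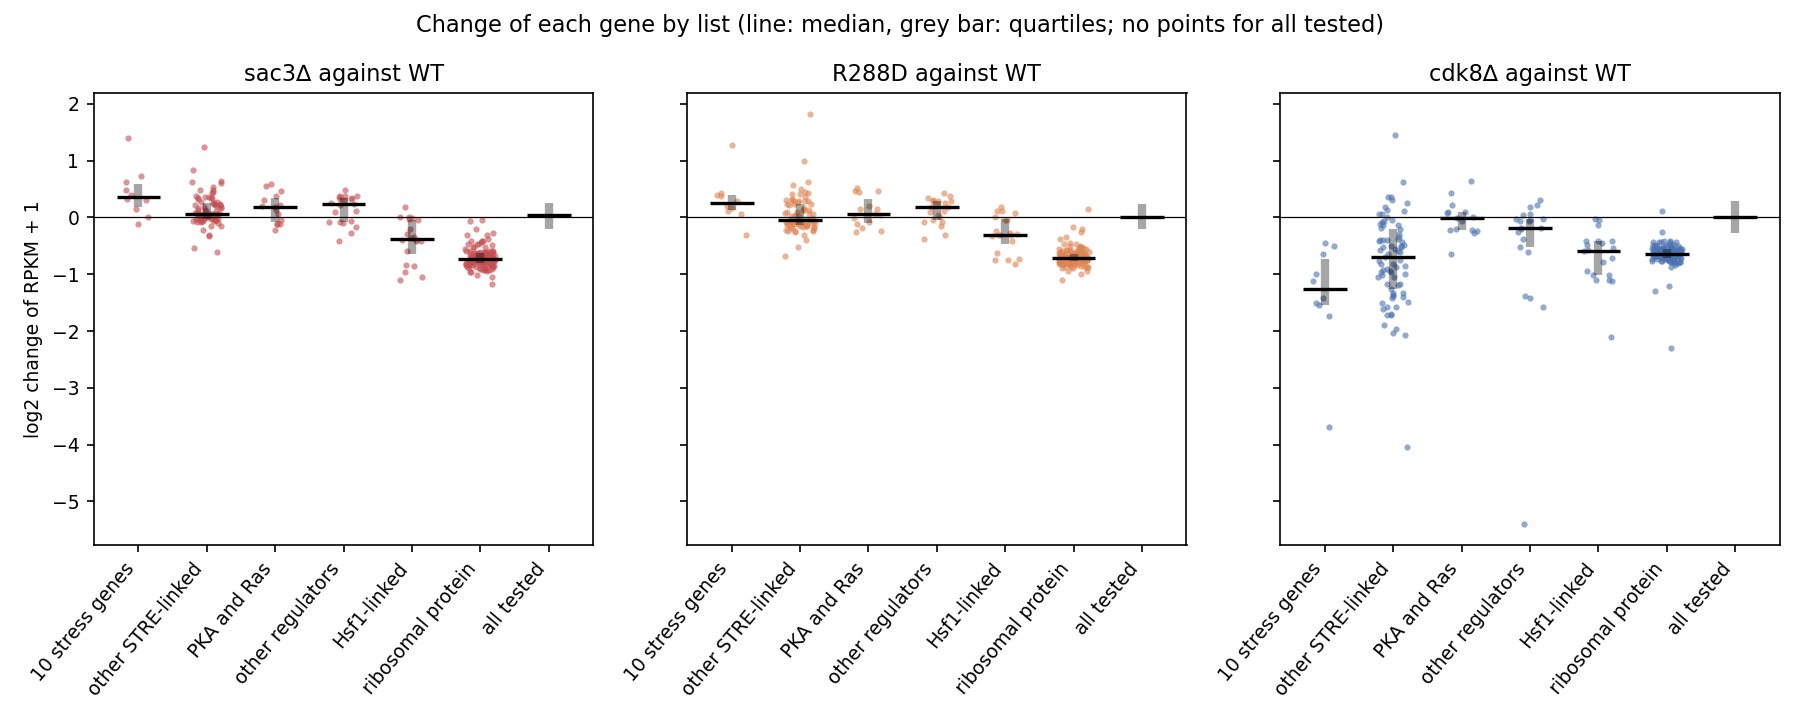
Log2 change of RPKM + 1 relative to WT by list in sac3∆, R288D and cdk8∆, 1 point per gene, with a line at the median and a grey bar for the quartiles (no points for all features tested). The 10 stress genes have medians of 0.36, 0.25 and -1.27 in that order, the 77 other STRE-linked genes 0.06, -0.04 and -0.69, and the 137 ribosomal protein genes -0.73, -0.71 and -0.64, the last turning to 0.02 with quantile normalization.

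Over the 12 samples the members ran closely together, as a description of points that share group means. Pearson's r of log2 values over the 45 pairs of members had a median of 0.921, with a low of 0.773 for MSN2 with RTN2 and a high of 0.992 for HSP12 with HOR7. Against the mean standardized profile of the 8 targets, which includes the target itself, r was 0.996 for CTT1 and SOL4, 0.947 for MSN4 and 0.917 for MSN2. For the remaining targets it was 0.976 for HOR7, 0.972 for HSP12, 0.964 for DDR2, 0.952 for TKL2, 0.945 for DCS2 and 0.939 for RTN2. The 5 genes outside the members most like that profile were TMC1 (0.995), FMP48 (0.995), YNL234W (0.993), HXK1 (0.993) and TDA1 (0.993). TMC1 averaged 938 ± 23.7 RPKM in sac3∆, 856 ± 76.3 RPKM in R288D, 342 ± 6.11 RPKM in cdk8∆ and 744 ± 20.7 RPKM in WT (SD, n = 3). FMP48, a kinase gene, averaged 339 ± 48.0 RPKM in sac3∆, 311 ± 97.4 RPKM in R288D, 28.03 ± 0.709 RPKM in cdk8∆ and 223 ± 3.77 RPKM in WT (SD, n = 3). Of the 6114 other features, 423 had r above 0.9 and 195 had r above 0.95.

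Among genes other than the members, the cdk8∆ change was set against the number of STRE cores. The median log2 change in cdk8∆ was 0.01 for 4380 genes with 0 cores in 300 bases, 0.01 for 1072 genes with 1, -0.04 for 162 genes with 2 and -0.61 for 31 genes with 3 or more. Of those 31 genes, 67.7% fell, beside 31.7% of the genes with 0 cores. In sac3∆ the median for the 31 genes was 0.01 and in R288D -0.06. Of the 32 tested genes with at least 3 cores, DDR2 is the 1 member, 11 are in the STRE-linked list and 20 are in neither, and the median of these 20 was -0.38, with 10 that fell. TKL2, SOL4, RTN2, CTT1 and HOR7, each with 1 core in that window, fell in cdk8∆ by 1.11 to 1.74 on the log2 scale. In 500 bases, 105 genes had 3 or more cores, with a median of -0.37 and 56.2% that fell. The relation is a description, with no test.

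**Figure D5:**
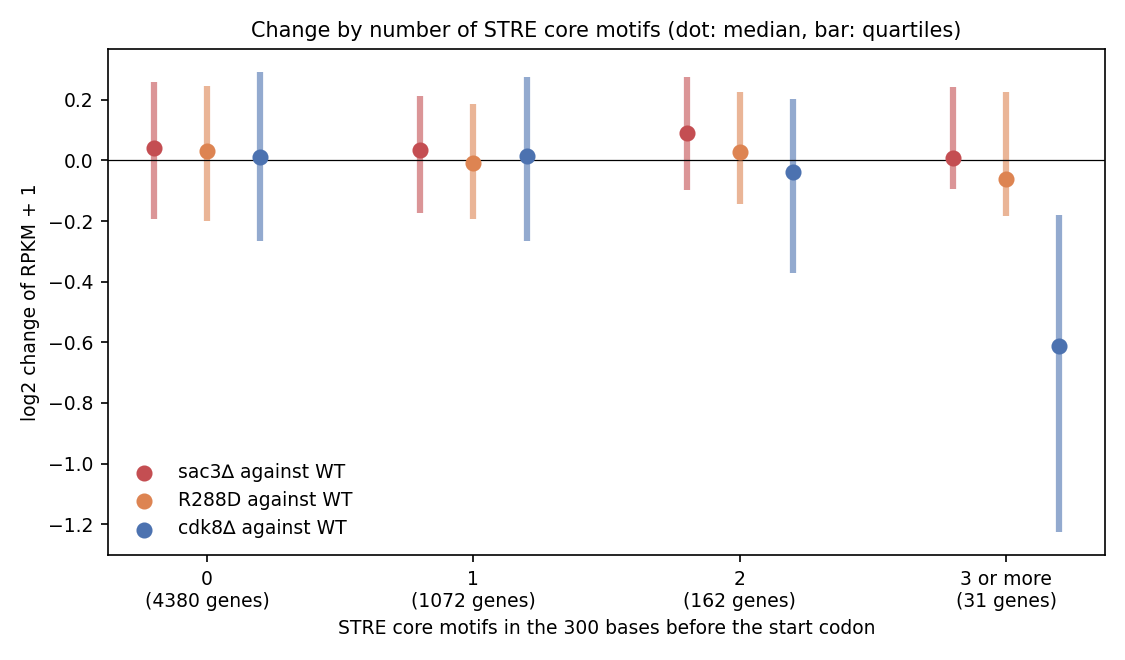
Median (dot) and quartiles (bar) of the log2 change of RPKM + 1 relative to WT in sac3∆, R288D and cdk8∆, for genes other than the 10 members grouped by the number of STRE cores in the 300 bases before the start codon. In cdk8∆ the median is -0.61 for the 31 genes with 3 or more cores and between -0.04 and 0.01 for those with fewer.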

How the data were processed

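Per the labels' protocols, RNA was extracted with hot phenol, treated to remove DNA, depleted of ribosomal RNA and made into libraries with a kit. Build R64, HTSeq 0.5.4p3, TopHat2 2.0.9, limma, edgeR and R 3.0.1 are listed in the submitters' processing notes. The deposited values are RPKM per feature. Their library sizes were scaled between samples, at 1.14 to 1.18 times the recovered reads in cdk8∆ and 0.864 to 0.892 times in WT, which was inferred here from steps of whole reads (at least 99.3% of values under 300 reads whole within 0.1). The sources used here state neither the strand setting of the counting nor whether replicates were separate cultures, so p-values measure only the spread between these samples.

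Features averaging 1 RPKM or more (6124) were fitted as log2(RPKM + 1) with limma 3.58.1 in R 4.3.3, with a mean for each of 4 groups, 8 residual degrees of freedom, a mean trend, two-sided tests and a threshold of 0.05 on p-values adjusted by Benjamini-Hochberg within each comparison. The fit was tested on simulated data. Python 3.11.15 and Biopython 1.88 were used for tables and sequences, which are from RefSeq, R64. The members and gene lists were chosen with earlier results of these data known. Named were the 10 members, 5 paralog partners, SAC3, SSN3, the 5 genes most like the targets, and genes among the 3 called ones with the lowest adjusted p per list, direction and comparison with WT. Lists were described by counts and medians, with no test. Alternatives were 2 other pseudocounts, 2 filters, 2 scalings, only the groups compared, no mean trend, a replicate block and leaving out each sample.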

Additional observations from a re-analysis of the deposited data

How the results depend on the processing

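Of 1260 recomputed member values (10 genes, 6 comparisons and 21 alternatives), 1229 kept their side of the threshold, 5 lost a call and 26 gained one. No value called in either fit changed sign. Some uncalled values did, such as RTN2 in sac3∆ against WT, from -0.11 to 0.08 with quantile normalization. All calls of both SAC3 mutants against cdk8∆ held under all 21 alternatives, as did all calls of cdk8∆ against WT apart from DCS2 with quantile normalization. The number of members called was 9 with quantile normalization in sac3∆ against WT, where 5 are reported, and 8 in R288D against WT, where 4 are reported; the cause was not tested. Leaving out each sample in turn gave 5 to 7 members in sac3∆ against WT, 3 to 7 in R288D against WT and 0 to 2 in sac3∆ against R288D, the 7 without R288D replicate 1 and the 2 without R288D replicate 2. Setting medians equal shifted the median change of all features by -0.09 in sac3∆, -0.07 in R288D and -0.06 in cdk8∆. For the 77 other STRE-linked genes, the number that rose in sac3∆ was 11 with medians equal and 40 with quantile normalization, and in R288D 27 with quantile normalization. Among all 6124 features these numbers were 1185, 1385 and 1295 in the same order. The number of the 77 that fell in sac3∆ was 8 with medians equal, beside 1954 of all features. The number that fell in R288D was 3 with quantile normalization, 5 with only the groups compared and 4 to 25 with a sample left out. The number that rose in cdk8∆ was 3 with medians equal, 13 with quantile normalization, 8 with only the groups compared and 3 to 7 with a sample left out. A window of 500 bases raised the share of genes with an STRE core to 34.1%, by its greater length. Same-numbered samples deviated together in 2 of 18 pairs (correlation over 0.1; range -0.29 to 0.16), and 5 of 18 correlated best with their own number, so the numbers were not taken as pairs. With the replicate block, DCS2 in sac3∆ against WT passed (0.32, limma adjusted p = 0.0491), and no other member call changed. Precision is limited by 3 samples per group, by the spread in R288D and, for TKL2 in cdk8∆, by counts of 174 to 205 reads.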
